A study of Mus musculus with 16 samples.

Results

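The T and NK cell genes described here are 10 genes: the CD3 chain genes Cd3e, Cd3d and Cd3g, the coreceptor genes Cd4 and Cd8a, the kinase gene Lck, the surface molecule genes Cd2 and Cd7, and the granzyme genes Gzma and Gzmb. Their probes were found by the gene symbol in the deposited array table. Of the 10 genes, 9 had a probe, 1 each, among the 25697 probes of the table. Gzma had no probe under its symbol and was not analysed here. RNA from whole small intestine of 16 mice was hybridised to Illumina bead arrays, 1 array per mouse. The 8 Hnf4aKO mice carried Hnf4afl/fl alleles together with VillinCreERT2, a tamoxifen-inducible Cre recombinase whose villin promoter is active in the intestinal epithelium. The 8 Hnf4aWT mice lacked the Cre; the protocol gives them the same floxed alleles, another label gives Hnf4a+/+, and it is unsettled which applies. Tamoxifen (1 mg by gavage, 5 days running) was given to all 16 mice, followed 3 weeks later by whole-body irradiation with 14 Gy; the intestine was collected at 96 hours. The labels name no strain, age or sex. No unirradiated tissue was measured, so the data give which genes were detectable after irradiation and not whether their level had changed since.

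T cells recognise antigen through the T cell receptor, whose CD3 chains carry the signal into the cell. The kinase LCK, held at the coreceptors CD4 and CD8, phosphorylates those chains. In the small intestine many T cells lie between the epithelial cells as intraepithelial lymphocytes, most of them CD8-positive, and others lie in the lamina propria. Cytotoxic T cells and NK cells kill by releasing perforin and granzymes. The deletion is directed at the epithelium, so lymphocytes themselves are not its target.

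Hnf4a, the deleted gene, read 10.49 ± 0.19 in Hnf4aKO and 12.24 ± 0.16 in Hnf4aWT tissue (log2 units of normalized intensity, SD, n = 8 each), and the highest Hnf4aKO array, at 10.71, lay below the lowest Hnf4aWT array, at 11.91. The difference was -1.75 (limma adjusted p = 1.68e-09). Its probe was not placed against the deleted part. Each array detected 46.9% to 53.1% of the probes, and correlations between arrays lay between 0.951 and 0.993. The arrays lie on 2 slides, each with 4 arrays of either genotype. The replicates were taken as separate animals because the design text counts mice.

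The 3 CD3 genes carry the results that follow, and their promoters are therefore shown. They lie next to each other on chromosome 9, in the order Cd3g, Cd3d, Cd3e among protein-coding genes, and Cd3g and Cd3d are transcribed in opposite directions. Each sequence is the RefSeq window from 250 bases before to 50 bases after the gene's start (GRCm38.p6, 300 bases, read 5′ to 3′ on the gene's strand). Capitals mark the E-box CAGGTG on either strand, a letter pattern bound by E proteins of lymphocytes.
Cd3e (chr9:45009562-45009861, minus strand): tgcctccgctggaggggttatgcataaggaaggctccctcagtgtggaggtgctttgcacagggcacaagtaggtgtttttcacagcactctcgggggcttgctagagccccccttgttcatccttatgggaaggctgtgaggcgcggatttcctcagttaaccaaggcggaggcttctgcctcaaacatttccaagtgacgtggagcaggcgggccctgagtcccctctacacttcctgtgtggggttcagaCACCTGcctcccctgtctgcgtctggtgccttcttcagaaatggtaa
Cd3g (chr9:44980382-44980681, minus strand): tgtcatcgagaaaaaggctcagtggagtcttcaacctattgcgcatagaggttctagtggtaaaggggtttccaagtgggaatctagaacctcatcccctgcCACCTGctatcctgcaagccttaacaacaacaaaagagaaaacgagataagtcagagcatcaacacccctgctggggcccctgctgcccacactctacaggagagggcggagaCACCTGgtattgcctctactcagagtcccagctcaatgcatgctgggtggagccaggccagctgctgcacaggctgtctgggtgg
Cd3d (chr9:44981536-44981835, plus strand): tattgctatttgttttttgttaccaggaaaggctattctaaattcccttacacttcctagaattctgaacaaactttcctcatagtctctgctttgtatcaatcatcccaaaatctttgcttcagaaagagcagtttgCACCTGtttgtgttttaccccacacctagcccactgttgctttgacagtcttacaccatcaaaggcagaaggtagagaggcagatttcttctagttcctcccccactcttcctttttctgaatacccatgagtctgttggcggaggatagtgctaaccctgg
The Cd3g window holds 2 such E-boxes, beginning 148 and 35 bases before the start, the Cd3d window 1, beginning 112 bases before it, and the Cd3e window 1, beginning at base 4 of the transcript. The same letters occur in 20.2% of all 32851 windows of this length. Searched on both strands, the RUNX pattern TGNGGT occurs in all 3 windows and in 45.8% of all windows. The ETS-type pattern AGGAAG occurs in the Cd3e and Cd3d windows and in 35.4% of all windows. The HNF4 pattern AAAGTCCA occurs in none of the 8 windows listed for 7 of the members and in 1.25% of all windows. No matches of the 4 patterns overlapped in the 3 windows shown, and the patterns were chosen after the windows had been searched. A match is a run of letters and not a binding site.

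Of the 9 probes, 5 passed the detection filter, that is, a detection p under 0.05 on at least 6 of the 16 arrays, and 4 did not. Of all probes, 52.4% passed. Cd3e, Cd3g and Lck were detected on all 16 arrays, as were 39.2% of all probes. Cd3d was detected on 7 of 8 Hnf4aKO and on all 8 Hnf4aWT arrays. Cd7 was detected on 4 Hnf4aKO and 3 Hnf4aWT arrays. Cd2 was detected on 1 array of either genotype, and Cd4 on 0 Hnf4aKO arrays and 1 Hnf4aWT array. Cd8a and Gzmb were not detected on any array, which holds for 34.9% of all probes. A threshold of 0.05 lets 5% of the negative controls pass by construction, so detection on 1 or 2 of 16 arrays lies close to what the threshold itself gives. At a detection p under 0.01, Cd3e, Cd3g and Lck remained detected on every array, Cd3d on 5 Hnf4aKO and 6 Hnf4aWT arrays, Cd7 on 0 and 1, and the other 4 on none. The number of members detected on an array ran between 3 and 5 in Hnf4aKO and between 4 and 5 in Hnf4aWT tissue.

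**Figure D1:**
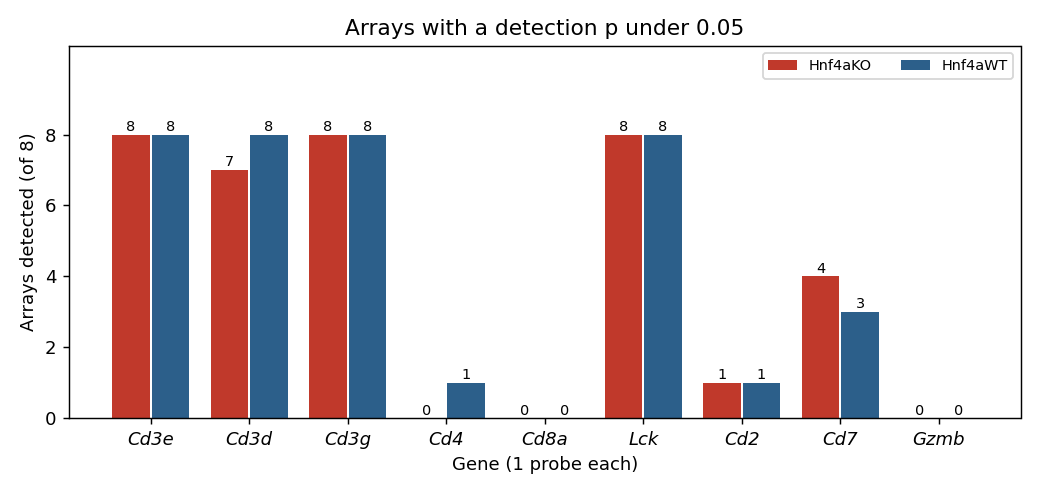
Number of arrays, of 8 per genotype, on which each probe had a detection p under 0.05 (vertical axis), with Hnf4aKO in red and Hnf4aWT in blue. Cd3e, Cd3g and Lck reach 8 in both genotypes, Cd8a and Gzmb stay at 0, and Cd3d differs by 1 array.

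Of the 5 members tested, 1 passed the threshold, Cd3e, which was lower in Hnf4aKO tissue, and 0 were higher. Among all 13460 probes tested 29.4% passed, 17% lower and 12.4% higher, so 1 of 5 lies near the background and says nothing particular about these genes. By the same limma fit 5478 of the 13460 probes had an unadjusted p under 0.05. With median scaling, 31.7% of the calls over all probes lay on the higher side, against 42.1% with quantile normalization. The median difference of the 5 tested members was -0.28, against -0.04 over all probes tested. That median is the value of Cd3d, whose difference was 0.32 on slide 1 and -0.89 on slide 2. The CD3 chain genes among the 5 varied together between arrays, so the 5 are not independent values.

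Cd3e encodes the CD3 epsilon chain, which pairs with the gamma or the delta chain in every T cell receptor complex. It had a lowest value of 6.55, a median of 7.04 and a highest of 7.68 in Hnf4aKO tissue, against 6.92, 7.72 and 8.21 in Hnf4aWT tissue (log2 units). All 8 Hnf4aKO arrays lay below the Hnf4aWT median. The groups still overlapped, with 3 Hnf4aKO arrays below the lowest Hnf4aWT array and 4 Hnf4aWT arrays above the highest Hnf4aKO array. The means were 7.07 ± 0.35 in Hnf4aKO and 7.65 ± 0.38 in Hnf4aWT tissue (SD, n = 8 each), and Hnf4aKO tissue held 67% of the Hnf4aWT value. The difference was -0.58 (SE 0.17, 95% interval -0.94 to -0.21, limma adjusted p = 0.0184). The Cd3e difference was -0.35 on slide 1 and -0.80 on slide 2, and 4 arrays per genotype on a single slide did not carry the call (limma adjusted p = 0.257 and 0.0715). With no background correction the Cd3e difference was -0.36 and kept its call (limma adjusted p = 0.0181). In whole tissue, fewer T cells and less of this RNA per T cell cannot be told apart.

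Cd3d, the delta chain gene, ran over 5.69, 6.71 and 7.61 in Hnf4aKO tissue (lowest, median and highest), against 6.12, 6.85 and 7.58 in Hnf4aWT tissue. The groups overlapped over most of their range, with 3 Hnf4aKO arrays below the lowest Hnf4aWT array and 1 above the highest. The difference was -0.28 (SE 0.27, 95% interval -0.85 to 0.28, limma adjusted p = 0.459). Its sign differed between the slides, at 0.32 on slide 1 and -0.89 on slide 2. The genotype by slide term was -1.21, with an unadjusted p of 0.0162 and a limma adjusted p of 0.994 over all probes.

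Cd3g, the gamma chain gene, ran over 6.71, 7.81 and 8.47 in Hnf4aKO tissue, against 7.14, 8.12 and 8.54 in Hnf4aWT tissue. In all, 7 Hnf4aKO arrays lay below the Hnf4aWT median, but only 1 lay below the lowest Hnf4aWT array. The difference was -0.30 (SE 0.23, 95% interval -0.78 to 0.19, limma adjusted p = 0.358), with 0.11 on slide 1 and -0.70 on slide 2. The intervals of Cd3d and Cd3g both hold the Cd3e difference of -0.58, so the tests do not show that these chains changed less than Cd3e.

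**Figure D2:**
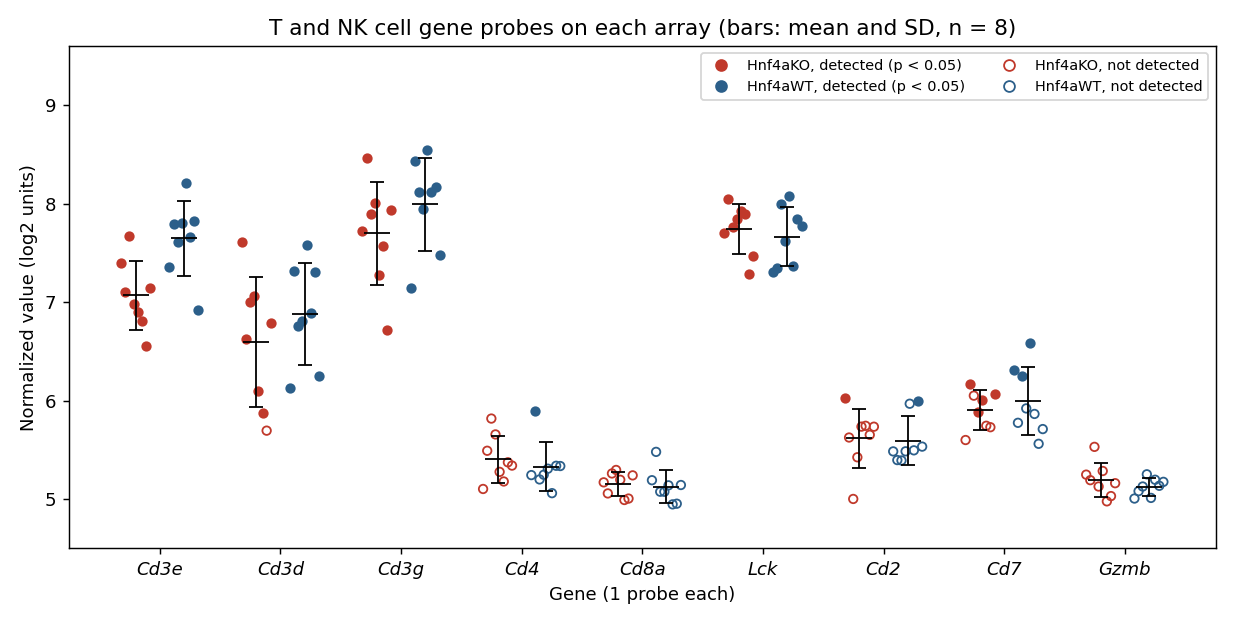
Normalized value of each probe on each array (log2 units), Hnf4aKO in red left of Hnf4aWT in blue; filled points were detected, open points were not, and black bars give mean and SD (n = 8). Cd3e sits lower in Hnf4aKO tissue, with means of 7.07 in Hnf4aKO and 7.65 in Hnf4aWT, while Cd4, Cd8a and Gzmb form one flat band of mostly open points.

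Lck, the kinase that phosphorylates the CD3 chains, ran over 7.28, 7.80 and 8.04 in Hnf4aKO tissue, against 7.30, 7.69 and 8.08 in Hnf4aWT tissue. The groups covered nearly the same range. The difference was 0.08 (SE 0.14, 95% interval -0.21 to 0.36, limma adjusted p = 0.719). On slide 1 it was 0.27 and on slide 2 it was -0.12.

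Cd7, a surface molecule of T and NK cells, ran over 5.60, 5.94 and 6.17 in Hnf4aKO tissue, against 5.56, 5.89 and 6.58 in Hnf4aWT tissue. No Hnf4aKO array lay below the lowest Hnf4aWT array, and 3 Hnf4aWT arrays lay above the highest Hnf4aKO array. The difference was -0.09 (SE 0.14, 95% interval -0.38 to 0.20, limma adjusted p = 0.663). Cd7 was detected on 4 Hnf4aKO and 3 Hnf4aWT arrays, so most of its values lay near background, where a difference is hard to detect.

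The remaining 4 probes read at or near background in both genotypes, so no fold is given. Whether these probes respond to their RNA was not tested, so a missing signal does not show that the RNA was missing. Cd8b1, the gene of the CD8 beta chain, was detected on 5 Hnf4aKO and 7 Hnf4aWT arrays. Cd4, the coreceptor gene of helper T cells, read deposited intensities of 111 to 196 in Hnf4aKO and 88.7 to 144 in Hnf4aWT tissue. Cd8a, the coreceptor alpha chain gene, read 89.6 to 157 in Hnf4aKO and 79.5 to 124 in Hnf4aWT tissue. Cd2, an adhesion molecule gene of T and NK cells, read 128 to 186 in Hnf4aKO and 111 to 156 in Hnf4aWT tissue. Gzmb, the gene of granzyme B, a protease of cytotoxic granules, read 91.7 to 178 in Hnf4aKO and 93.5 to 131 in Hnf4aWT tissue. The lowest intensity that counted as detected was 138 to 213 on Hnf4aKO and 125 to 201 on Hnf4aWT arrays. Within the fit over all 25697 probes, with no detection filter, the 4 genes differed by 0.08, 0.03, 0.02 and 0.07 in that order (limma adjusted p = 0.778, 0.893, 0.949 and 0.635). At signals near background a difference was not detectable, and these values do not show that it was absent.

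Pairs of members were set against each other on each array, since 1 call among 5 genes does not show unequal change. None of the pairs named in advance had both genes past the detection filter, so all 10 pairs of the 5 tested members were compared, a choice made after seeing the data. In a two-sided exact permutation test (12870 splits), 0 pairs passed after Benjamini-Hochberg adjustment over the 10, and 2 had an unadjusted p under 0.05. The largest shift was in Cd3e minus Lck, which averaged -0.67 ± 0.38 in Hnf4aKO and -0.02 ± 0.41 in Hnf4aWT tissue (SD, n = 8 each). That is a difference of -0.65 (exact permutation p = 0.00793, adjusted 0.0793), with all 8 Hnf4aKO arrays below the Hnf4aWT median. The adjusted p was 0.0482 without Hnf4aKO array 3 and 0.0171 without Hnf4aWT array 8, so single arrays decide on which side of the threshold it lies. Cd3e minus Cd7 differed by -0.49 (exact permutation p = 0.0283, adjusted 0.141). Cd3e minus Cd3d and Cd3e minus Cd3g differed by -0.29 and -0.28 (exact permutation adjusted p = 0.282 for both), and Cd3d minus Cd3g by 0.01 (adjusted 0.964).

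The CD3 probes varied together from mouse to mouse. After each genotype mean was subtracted, Pearson's r over the 16 arrays was 0.83 between Cd3e and Cd3d, 0.76 between Cd3d and Cd3g and 0.70 between Cd3e and Cd3g. Spearman's rho was 0.80, 0.77 and 0.64 for the same pairs. Lck followed the CD3 probes less closely, with r between 0.25 and 0.48, and Cd7 still less, with r between 0.02 and 0.31. Most Cd7 values lay near background, which limits what its r can show. The arrays share tissue pieces, slides and normalization, so these values are descriptions. Hnf4aKO array 7 had the lowest value of its group for all 3 chains, at 6.55 for Cd3e, 5.69 for Cd3d and 6.71 for Cd3g. Hnf4aWT array 5 had the highest value of its group for all 3, at 8.21, 7.58 and 8.54.

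**Figure D3:**
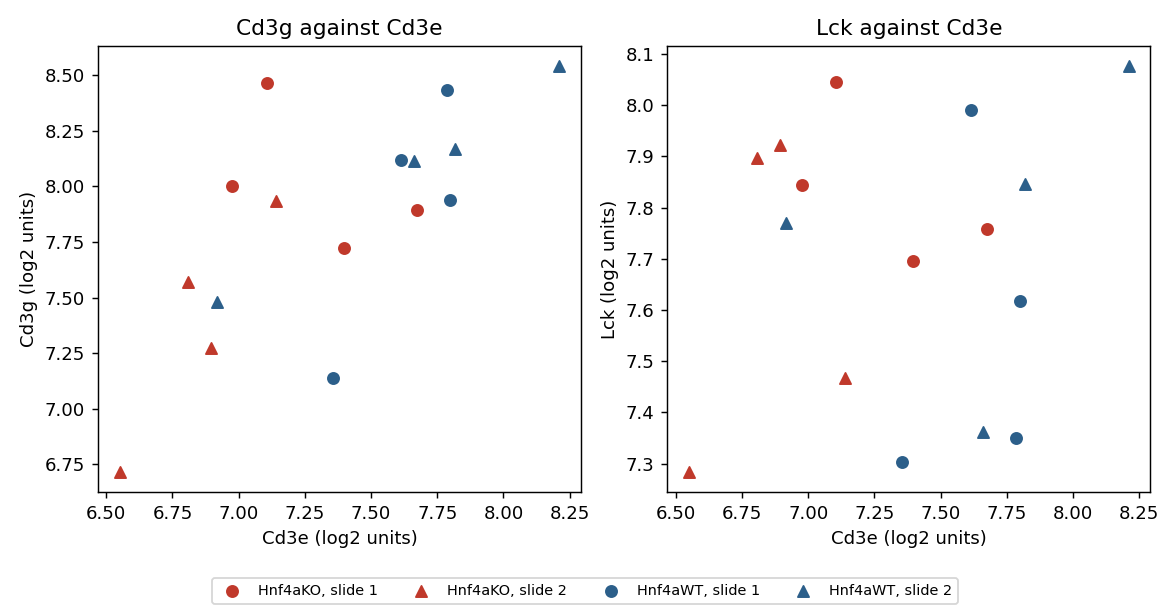
Cd3g (left) and Lck (right) against Cd3e on each array, in log2 units, with Hnf4aKO in red, Hnf4aWT in blue, circles for slide 1 and triangles for slide 2. Cd3g rises with Cd3e within both genotypes (r = 0.70 after the genotype means are subtracted), and Lck does so less (r = 0.26).

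Among all probes past the filter, those most like the mean of the 3 CD3 probes over the 16 arrays, after the genotype means were subtracted, were Cd6, a T cell surface receptor gene (r = 0.86), and Ccl5, a chemokine gene of activated T and NK cells (r = 0.85). Hsd17b11 (r = 0.82), Slc7a8 (r = 0.80) and Sesn1 (r = 0.79) followed. Neither Cd6 nor Ccl5 passed the threshold between genotypes, with differences of -0.05 and 0.23 (limma adjusted p = 0.902 and 0.532). No granzyme probe passed the filter, so the brightest member, Cd3g, took its place in the same search. Its 5 closest probes were Apoc3 (r = 0.91), Slc16a10 (0.88), Abp1 (0.87), Slc7a8 (0.87) and Apoa4 (0.86), over the same 16 arrays. Between genotypes Apoc3 differed by 1.28 and Abp1 by -0.99 (limma adjusted p = 0.0388 and 0.0126), while Slc16a10, Slc7a8 and Apoa4 did not pass. Apoc3 and Apoa4 encode apolipoproteins of absorptive enterocytes, and Slc7a8 and Slc16a10 encode amino acid transporters. These are the highest correlations out of 13460 probes, and each is a description.

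Other genes of the T cell receptor pathway were mostly dim or did not pass. Of 26 listed, 24 had a probe and 14 were tested by their brightest probe; 4 were higher, 0 were lower and 10 did not pass, with a median difference of 0.15. Over all 10143 genes 30% passed, 13.2% higher and 16.8% lower, with a median of -0.02. Vav1, a guanine nucleotide exchange factor downstream of antigen receptors, was higher by 0.46 (SE 0.13, limma adjusted p = 0.0112), Fyb, an adaptor, by 0.50 (adjusted 0.0187) and Lcp2, the adaptor SLP-76, by 0.62 (adjusted 0.0227). Lcp2 was detected on 7 Hnf4aKO and 2 Hnf4aWT arrays, so its Hnf4aWT level is mostly a bound and its size uncertain. Lcp2 thus passed the detection filter through the Hnf4aKO arrays. With no background correction the Lcp2 difference was 0.31 and the Fyb difference 0.33, and both still passed. All 3 genes are also used by myeloid cells, whose markers were higher on the same arrays. The part of myeloid cells in these calls was not tested. With median scaling 1 gene of the list was higher in place of 4, and the Vav1 difference and the Fyb difference no longer passed (limma adjusted p = 0.0942 and 0.0503). Without Hnf4aKO array 6 or Hnf4aWT array 8, 1 gene of the list was lower in place of 0. Of the genes with a probe, Themis, Grap2, Plcg1 and Ubash3a were not detected on any array.

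In the list of other T cell genes 12 of 26 with a probe were tested, 4 were higher, 1 was lower and 7 did not pass, with a median of -0.04. Bcl11b, a transcription factor of the T cell lineage that other tissues also express, read 9.10, 9.46 and 9.77 in Hnf4aKO tissue (lowest, median and highest), against 10.06, 10.34 and 10.51 in Hnf4aWT tissue. The groups did not overlap, and the difference was -0.88 (SE 0.10, limma adjusted p = 1.63e-05). Cd69, an early activation marker of lymphocytes, was higher by 1.07 (SE 0.22, adjusted 0.0016, limma) and was detected on 8 Hnf4aKO and 4 Hnf4aWT arrays. Cd69 thus passed the detection filter through the Hnf4aKO arrays. With no background correction the Cd69 difference was 0.57 and still passed. Thy1, which T cells share with fibroblasts and other stromal cells, was higher by 0.81 (adjusted 0.000932). With median scaling 2 genes of this list were higher. Cd8b1, the coreceptor beta chain gene and chosen here after its values were seen, was detected on 5 Hnf4aKO and 7 Hnf4aWT arrays and differed by -0.19 (SE 0.18, limma adjusted p = 0.476). Ccr7, Cd40lg, Cd96, Ms4a4b, S1pr1 and Tbx21 were not detected on any array.

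Among NK cell and killing genes 8 of 19 with a probe were tested, of which 2 were higher, 0 were lower and 6 did not pass, with a median of 0.09. Xcl1, a chemokine gene of activated T and NK cells, read 6.63, 7.16 and 7.48 in Hnf4aKO tissue, against 5.14, 5.85 and 6.51 in Hnf4aWT tissue. The groups did not overlap, and the difference was 1.29 (SE 0.20, limma adjusted p = 0.000163), with detection on 8 Hnf4aKO and 3 Hnf4aWT arrays. Xcl1 thus passed the detection filter through the Hnf4aKO arrays, and its Hnf4aWT level is mostly a bound. With no background correction the Xcl1 difference was 0.69 and still passed. Tyrobp, an adaptor of NK and myeloid receptors, was higher by 0.67 (limma adjusted p = 0.0407). It no longer passed with median scaling or with no detection filter, nor when Hnf4aKO array 3, 4 or 5 or Hnf4aWT array 2, 5, 6 or 8 was left out, and the list then held 1 higher gene. Prf1, the perforin gene and chosen here after its values were seen, read 10.33 ± 0.43 in Hnf4aKO and 10.33 ± 0.38 in Hnf4aWT tissue (SD, n = 8 each, limma adjusted p = 0.992). Ncr1, a defining receptor gene of NK cells, and Eomes, Gzmc, Klrk1 and Serpinb9 were not detected on any array.

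For homing and support of intraepithelial lymphocytes 8 of 11 genes with a probe were tested; 1 was lower, 1 was higher and 6 did not pass, with a median of 0.02. Itgae, the gene of the integrin CD103 that holds these lymphocytes to epithelial E-cadherin, read 7.11, 7.44 and 7.85 in Hnf4aKO tissue, against 7.61, 8.01 and 8.73 in Hnf4aWT tissue. The groups overlapped between 7.61 and 7.85. The difference was -0.63 (SE 0.14, limma adjusted p = 0.00347), and a dimmer Itgae probe differed by -0.66 (adjusted 0.0303). Madcam1, a vessel ligand for gut-homing lymphocytes, was higher by 0.80 (SE 0.18, limma adjusted p = 0.00356), and the Madcam1 difference was 0.45, still past the threshold, with no background correction. Ccr9, Itga4 and Ahr were not detected on any array.

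Chemokines that attract T cells, with their receptors, had 11 of 16 genes tested, of which 7 were higher, 1 was lower and 3 did not pass, with a median of 0.57. Among ligand genes of CXCR3, a chemokine receptor of T cells, Cxcl10 was higher by 3.04 (SE 0.28, limma adjusted p = 9.74e-07) and Cxcl9 by 2.71 (SE 0.32, adjusted 1.43e-05). Cxcl11, which encodes another ligand, and Cxcr3 itself were not detected on any array. Ccl28, an epithelial chemokine gene, was detected on 0 Hnf4aKO and 8 Hnf4aWT arrays, with means of 5.25 in Hnf4aKO and 7.33 in Hnf4aWT tissue. Ccl28 thus passed the detection filter through the Hnf4aWT arrays. With background correction it was at least 2.73-fold lower (limma adjusted p = 3.89e-05). That bound is set against the lowest detected signal or the probe's own value per array, whichever was higher. With no background correction the Ccl28 difference was -1.19 and still passed, so its size depends on this step. At a detection p under 0.01 on at least 8 arrays Ccl28 was not tested, and 0 genes of the list were lower.

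Markers of other leukocytes moved on the same arrays. Pan-leukocyte genes were higher for 8 of 9 tested, with a summed level of 12700 to 26400 in Hnf4aKO and 8040 to 13300 in Hnf4aWT tissue (normalized intensity) and a median difference of 0.62. Ptprc, the gene of the leukocyte antigen CD45, has 2 probes, of which 1 was detected on 4 Hnf4aKO and 0 Hnf4aWT arrays and the other on 1 array of either genotype. Macrophage and dendritic cell genes were higher for 13 of 16, with a summed level of 23300 to 61900 in Hnf4aKO tissue, against 13300 to 22100 in Hnf4aWT tissue. Among the 13, Itgax was detected on 8 Hnf4aKO arrays and 1 Hnf4aWT array, and Itgam on 6 and 0. Both thus passed the detection filter through the Hnf4aKO arrays. At a detection p under 0.01 on at least 8 arrays, 11 genes of this list were higher. B cell genes had 3 of 10 with a probe tested and 0 past the limma threshold. At an unadjusted p under 0.05 there was 1, Fcrla, with a difference of -0.75 and a limma adjusted p of 0.0616. Their summed level was 352 to 1420 in Hnf4aKO and 499 to 1160 in Hnf4aWT tissue, and Ms4a1, Pax5, Blk and Cr2 were not detected on any array. Plasma cell genes had 1 of 5 higher and 1 lower, with a median difference of -0.55. The lower gene, Tnfrsf17, was detected on 2 Hnf4aKO and 7 Hnf4aWT arrays. At a detection p under 0.01 on at least 8 arrays 0 plasma cell genes were lower, against 2 with median scaling. A dimmer probe of the higher gene, Sdc1, differed by 0.27 and did not pass (limma adjusted p = 0.299). Neutrophil genes had 1 of 5 higher, Il1r2, which no longer passed in 10 of 16 fits that left out 1 array, nor with no background correction, in the second deposited table or with no detection filter. Mast cell genes had 1 of 2 higher, and 2 without Hnf4aKO array 4 or Hnf4aWT array 1. Epithelial genes had 1 of 9 higher and 0 lower, against 0 higher and 2 lower with 75th percentile scaling and 0 higher and 1 lower with median scaling. The higher epithelial gene was lost without Hnf4aKO array 2 or Hnf4aWT array 1 or 5, and 1 was lower without Hnf4aKO array 6. The summed level of the 9 epithelial genes was 57200 to 74200 in Hnf4aKO and 58400 to 71900 in Hnf4aWT tissue. Fat genes had 1 of 4 higher, against 0 with no detection filter or without Hnf4aWT array 1, 6 or 7 and 3 without Hnf4aKO array 6. Their levels varied widely, with a summed level of 765 to 39000 in Hnf4aKO and 536 to 13400 in Hnf4aWT tissue. The part of all these other cell types in the Cd3e difference and in the calls of the T and NK cell lists was not tested. Within genotypes, the mean of the 3 CD3 probes went with the list means at r = 0.71 for intraepithelial homing and support, 0.20 for B cells, 0.18 for epithelium, 0.05 for macrophages and dendritic cells and 0.02 for pan-leukocyte genes (16 arrays each). For neutrophil genes it was -0.45 and for mast cell genes -0.24. It was 0.27 for T cell receptor signalling, 0.32 for other T cell genes and 0.35 for NK cell and killing genes, and 0.17, 0.11 and 0.10 for plasma cells, chemokines and fat. For Cd3e alone, r was 0.47 for intraepithelial homing and support and 0.41 for B cells. It was 0.06, -0.01 and 0.07 for T cell receptor signalling, other T cell genes and NK cell and killing genes.

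**Figure D4:**
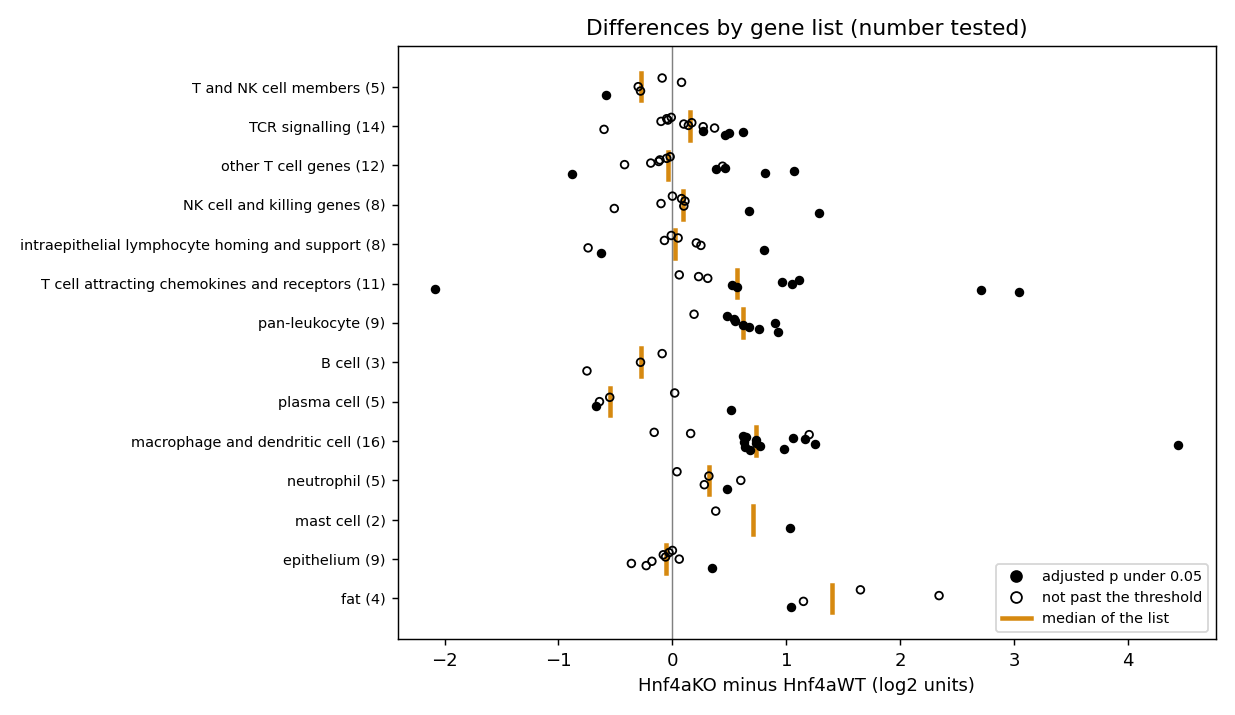
Hnf4aKO minus Hnf4aWT difference (log2 units, horizontal axis) of each tested gene, 1 row per list with the number tested; filled points passed the threshold, open points did not, and the orange bar is the list's median. The members' row has a median of -0.28 with 1 filled point, while the pan-leukocyte row lies at 0.62 and the macrophage row at 0.73. The members' median is the Cd3d value, whose sign differed between the slides.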

How the data were processed

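RNA from 16 arrays (8 Hnf4aKO, 8 Hnf4aWT) was labelled with biotin by an Illumina kit, per the labels' protocols. The authors deposited an unnormalized average bead intensity per probe, per the file headers. A detection p-value was deposited with it, in steps of 1 in 798 negative controls. A second deposited table holds linear intensity values that rank as on the same array (rank correlation 1), with medians of 158.5 to 159; how it was normalized is not stated, and it served as an alternative. No sample column was left unmapped.

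Intensities were background corrected (normexp in limma 3.58.1, R 4.3.3, negative controls inferred from the detection p-values, offset 16), quantile normalized and converted to log2. The size of a dim probe's difference depends on the background step. The Cd3e difference was -0.58 with this correction and -0.36 without it, and the Xcl1 difference 1.29 and 0.69. Probes with a detection p under 0.05 on at least 6 of 16 arrays (13460) were tested one by one with limma's moderated test (genotype term alone), Benjamini-Hochberg adjustment over all of them and a threshold of 0.05. Differences are Hnf4aKO minus Hnf4aWT, intervals are 95%, and a list uses the brightest probe of each gene. Array symbols were updated through RefSeq (GRCm38.p6): 20733 were current, 3903 matched a unique synonym and 1061 were kept. The procedure was tested on simulated data. The number of arrays limits precision.

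Members and lists were chosen with earlier results of these data known. Named beside the members and Hnf4a were up to 3 genes of a list with the smallest p past the threshold (given for the lists of T cell, NK cell, homing and chemokine genes), defining markers of other cell types (1 is not reported here), and the 5 probes most like the CD3 mean. Alternatives were slide or replicate number as a block, other offsets, scalings, filters and probe choices, the series table, single slides, and leaving out each array.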

Additional observations from a re-analysis of the deposited data

How the results depend on the processing

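The Cd3e difference kept its sign and its call under every alternative that used arrays of both slides, at -0.68 to -0.50 with any 1 array left out (limma adjusted p between 0.00386 and 0.0389), at -0.36 with no background correction and at -0.36 in the series table. On a single slide, with 4 arrays per genotype, 0 members were called lower on slide 1 and 0 on slide 2. Over all probes, slide 1 gave 434 higher and 506 lower, slide 2 gave 716 and 874, and median scaling gave 1099 higher. Leaving out 1 array gave 1381 to 1891 higher and 1975 to 2463 lower. Fewer arrays are part of these alternatives; for median scaling the cause was not tested.

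On slide 1 alone the sign turned for Cd3d (0.32), Cd3g (0.11), Cd3d minus Lck (0.05), Cd3d minus Cd7 (0.46) and Cd3g minus Cd7 (0.25). On slide 2 alone it turned for Lck (-0.12), Cd3e minus Cd3d (0.09), Cd3d minus Cd3g (-0.19) and Lck minus Cd7 (-0.08). Cd3d minus Cd3g ran between -0.13 and 0.12 with 1 array left out, and 0 or 1 pair then passed. None of these had passed the threshold, and the cause was not tested.

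Same-numbered mice of the 2 genotypes deviated together with r over 0.1 in 6 of 8 pairs. Of the 8 Hnf4aKO arrays, 4 correlated best with their own number. These values do not exclude a pairing by number. The main fit did not take the numbers as pairs, and the replicate block served as an alternative. With the replicate block 1937 probes were higher and 2507 lower, and the Cd3e difference stayed at -0.58 (limma adjusted p = 0.038). NK cell and killing genes and B cell genes (the B cell genes with median scaling too) then had 1 lower each, neutrophil genes 0 higher and fat genes 2 higher. At a detection p under 0.01, 4 members were detected on at least 6 arrays. Signal near background limits Cd4, Cd8a, Cd2 and Gzmb, for which no alternative gives a measured level.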
